A study of Mus musculus with 14 samples.

Results

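Stem cells of the epidermis between hair follicles (EpdSCs) were compared between mice in which a MYC-tagged *Sox9* transgene had not been induced (D0) and grafted skin in which it had been induced for 12 weeks (W12), the stage that the study places at tumour formation. The comparison rested on 4 of the 14 RNA-seq libraries of the series, 2 replicates for each stage, and was fitted together with 2 libraries each from W1, W2 and W6 of induction, 10 libraries in all. Of 54332 genes in the table, the 13110 whose TPM averaged 1 or more across these 10 libraries were tested. TPM is the abundance of a gene's transcripts relative to a total of 1000000 per library and is corrected for transcript length. Every donor carried K14rtTA; TRE-myc-Sox9 on a CD1 background and was labelled male, so D0 cells held the transgene too, but without doxycycline (DOX). D0 cells came from back skin at P21, the age at which DOX was started in mice that were not grafted, and the cells of W1, W2 and W6 from back skin at P28, P35 and P63. W12 cells carry the age label "grafted W12": neonatal skin was placed on immunocompromised Nude hosts, which were female, and DOX was given once the graft had healed. Grafting, host, age and the 12 weeks of SOX9 therefore changed together between the groups and cannot be told apart, and no graft without the transgene was analysed here. All cells were sorted as CD31/45/117/140a-neg, CD49f-high and CD34-neg with Ly6A-high, gates that remove endothelial, immune, melanocyte and fibroblast cells and bulge stem cells. The inducer rtTA is driven by the *Krt14* promoter, so the transgene was not limited to EpdSCs. That the cells were at a tumour stage is the study's staging of the tissue and was not tested in these libraries.

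SOX9 is a transcription factor of hair follicle stem cells that is normally silent in the interfollicular epidermis, whose basal cells express KRT5 and KRT14, rest on the basement membrane through hemidesmosomes, and lose both as they differentiate upwards and build the cornified envelope. Basal cell carcinoma, a skin tumour that resembles follicle tissue, commonly expresses it. Epidermis that is wounded or forms tumours commonly switches on the keratins KRT6, KRT16 and KRT17, alarmins of the S100 family, and matrix metalloproteinases, which cut collagen and other matrix proteins.

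The transgene was measured by an entry of its own, MYC-SOX9, which lay at 89.6 and 45.6 TPM in the D0 libraries and at 606 and 903 TPM in the W12 libraries. Both W12 libraries were above both D0 libraries, a log2 change of 3.51 ± 0.32 (SE; adjusted p = 9.33e-05). Here and below a log2 change is a difference of mean log2(TPM + 1) between 2 libraries and 2 libraries, a scale on which changes of weakly expressed genes look smaller than they are, and adjusted p is limma's, corrected by Benjamini-Hochberg over all genes tested, with a gene said to rise or fall at an adjusted p under 0.05. The labels call the libraries biological replicates. Their depth is unknown, since TPM keep none. The endogenous *Sox9* row lay at 11.5 and 9.47 TPM at D0 against 5.31 and 7.91 TPM at W12, and as the transgene carries the same coding sequence, reads can pass between these entries. Within a stage, log2(TPM + 1) of the tested genes correlated between the replicates at r = 0.964 for D0 and 0.982 for W12, as a description across genes.

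The markers used to sort the cells were partly against the gate at W12. *Itga6*, which encodes CD49f, lay at 196 and 289.7 TPM at D0 against 166 and 166 TPM at W12, and *Ly6a*, which encodes the Ly6A antigen, at 756 and 565 TPM at D0 against 1168 and 1109 TPM at W12, so both kept markers were present. *Pecam1*, which encodes the CD31 that the gate removes, lay at 0.137 and 0.0598 TPM at D0 and 26.1 and 59.8 TPM at W12 (log2 change 5.21 ± 0.36, adjusted p = 2.84e-05), and *Cd34* at 0.0614 and 0.383 TPM at D0 against 16.5 and 32 TPM at W12. *Ptprc* (CD45), *Kit* (CD117) and *Pdgfra* (CD140a) stayed under 2 TPM in each of the 4 libraries. The summed level of 5 endothelial markers was 0.320 and 0.0598 TPM at D0 against 57 and 124 TPM at W12, with *Emcn*, endomucin, at 22.9 and 45.5 TPM and *Tek*, an angiopoietin receptor, at 5.27 and 11.7 TPM at W12. In 22 further endothelial genes, chosen after this was seen, levels ran up to 1.84 TPM at D0 and from 1.52 to 256 TPM at W12. *Sele*, the adhesion molecule E-selectin, was listed at 0 in both D0 libraries and lay at 47.4 and 122 TPM at W12, and *Plvap*, a protein of capillary walls, went from 0.430 and 0.761 to 57.4 and 174 TPM. These genes were also higher in W12 replicate 2 than in replicate 1, with a median ratio of 2.26 over the 5 markers and 2.17 over the 22, against 1.07 over all tested genes, of which 2.62% had a ratio above 2. As these are bulk libraries, more cells of a type and more RNA per cell cannot be told apart. Whether endothelial RNA had a part in the results below was not tested, and the ratio between the W12 replicates is given beside several genes below. Among other genes named here it also lay above the 95th percentile of all tested genes in several. These included *Prl2c5* at 2.25, *Cd34* at 1.93, *Prdm1* at 1.93, *Tbx1* at 1.91 and *Prl2c2* at 1.86. They also included *Igfbp7* at 1.8, *Nkd2* at 1.78, *Lcn2* at 1.76, *Batf* at 1.73 and *Ltbp3* at 1.72.

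**Figure D1:**
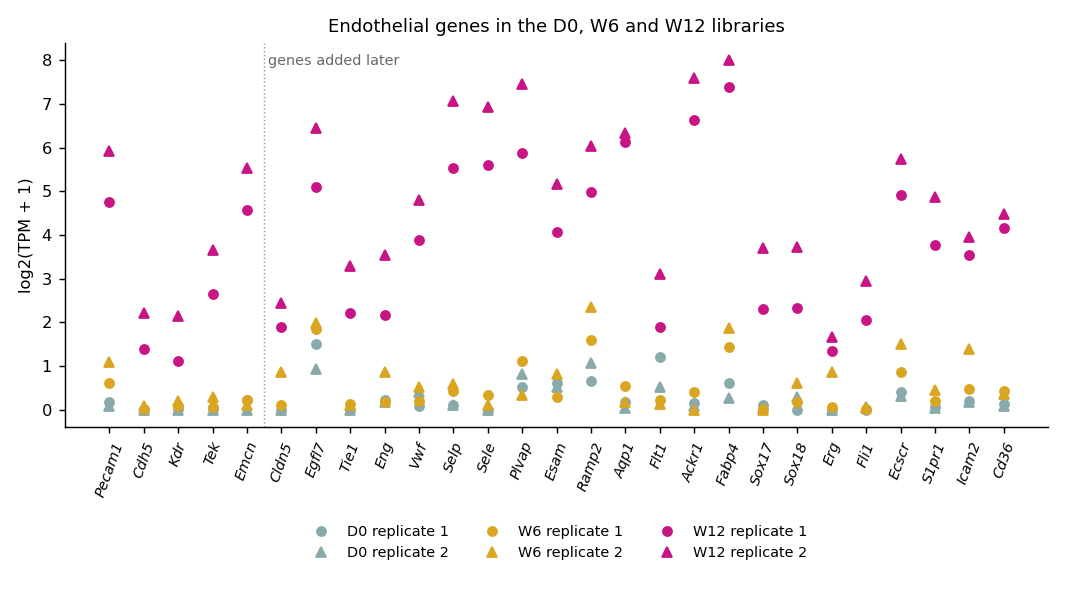
Level of endothelial genes, as log2(TPM + 1), in each D0, W6 and W12 library, with the 5 markers at the left and the 22 genes added later at the right. The D0 and W6 points lie near 0 for most genes, and the W12 points lie above them, with replicate 2 above replicate 1.

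Markers of other cells moved less or in part. The summed level of 10 immune markers was 47.5 and 31.7 TPM at D0 against 232 and 253 TPM at W12, and this rise lay in the class II presentation genes, with *Cd74* at 26.4 and 14.8 TPM at D0 against 102 and 124 TPM at W12, while the defining leukocyte markers *Ptprc*, *Cd3e*, *Csf1r*, *Itgam* and *Lyz2* stayed under 1 TPM in all 4 libraries. For fibroblasts the sum was 37.4 and 51.6 TPM at D0 against 30.7 and 43.1 TPM at W12, with *Pdgfra* and *Col1a1* under 1 TPM in each. *Thy1*, a surface antigen also known from other cells, made up most of it at D0 and fell from 35.7 and 47.5 to 17 and 15.1 TPM (adjusted p = 0.0271, and 0.0925 to 0.14 without D0 replicate 2, W12 replicate 1 or W12 replicate 2). *Dcn*, the matrix proteoglycan decorin, lay at 1.44 and 1.63 TPM at D0 against 13.2 and 27.2 TPM at W12 (adjusted p = 0.0566). The 4 haemoglobin genes summed to 28.3 and 30.6 TPM at D0 against 432 and 461 TPM at W12. Sex-linked genes did not follow the label. D0 replicate 1 listed the Y-linked *Ddx3y* at 32.1 TPM and D0 replicate 2 at 0.0278 TPM, whereas *Xist*, expressed from the inactive X chromosome, had D0 values of 0.00103 and 4.61 TPM and W12 values of 5.51 and 3.5 TPM, and *Ddx3y* was present too at W12, at 11 and 12.9 TPM. With D0 replicate 2 left out, the log2 change of *Ddx3y* was −1.36 (adjusted p = 0.00213), and with D0 replicate 1 left out 3.65 (adjusted p = 4.92e-05), in place of 1.14 (adjusted p = 0.472). The cause of these values was not tested, and what follows was also computed without each of the 4 libraries.

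At W12, 2352 of the 13110 genes tested (17.9%) were higher than at D0 and 3290 (25.1%) were lower. The counts in the gene lists below are read beside these shares, and as a gene near 0 at D0 could pass the TPM filter only through a stage where it was high, they are descriptions. Changes of at least 1 on the log2 scale made up 1329 of the former and 1827 of the latter, and changes of at least 3 were more frequent upwards, with 310 genes, than downwards, with 75. Among the fits with a library left out, the one without W12 replicate 2 called the fewest higher genes. The one without W12 replicate 1 called the fewest lower genes. Without D0 replicate 2 the counts were 1515 and 2222, and without W12 replicate 1 1480 genes were higher. Gene length moved with the direction. Of the 3275 genes with the shortest transcripts 29.7% were higher and 8.76% lower, and of the 3272 with the longest 8.68% were higher and 39.0% lower. After a per-library correction for length the calls split into 2897 higher and 2615 lower, so 52.6% of called genes were higher in place of 41.7%, and with median-ratio scaling they split into 2947 and 2916. Whether length bias of the low-input libraries had a part in the falls of long genes was not tested.

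**Figure D2:**
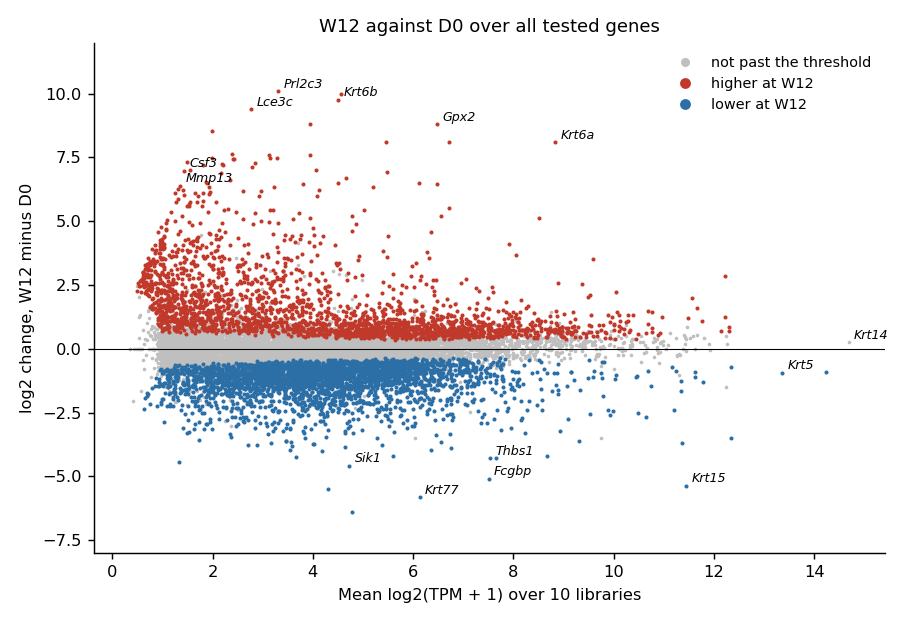
Log2 change at W12 against D0 (vertical) by mean log2(TPM + 1) over the 10 libraries (horizontal), with 1 point for each of the 13110 genes tested, coloured where adjusted p was under 0.05. The 310 genes that rose by at least 3 reach higher on the axis than the 75 that fell by at least 3 reach down.

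The 10 largest rises were in *Prl2c3*, *Slpi*, *Krt6b*, *Lce3c*, *S100a9*, *Gpx2*, *Lce3d*, *Cstdc5*, *Sprr1b* and *Krt6a*, by the rule given with the processing. *Lce3c* and *Lce3d* encode late cornified envelope proteins and sit beside each other on chromosome 3, at chr3:92944486-92945733 and chr3:92957390-92958505 on GRCm38. *Lce3c* lay at 0.0452 and 0 TPM at D0 and 691 and 684 TPM at W12 (log2 change 9.40 ± 0.18, adjusted p = 4.76e-08), and *Lce3d* was listed at 0 in both D0 libraries and lay at 397 and 350.0 TPM at W12. *Gpx2*, a glutathione peroxidase at chr12:76792333-76795554, lay at 0.680 and 0.607 TPM at D0 against 817 and 650.2 TPM at W12, with a spread within each stage far below the difference (log2 change 8.80 ± 0.63, adjusted p = 2.95e-05). *Cstdc5*, a stefin that inhibits cathepsins, had the widest D0 spread of the 10, with 38.8 and 2.38 TPM at D0 against 3485 and 2989.9 TPM at W12 (log2 change 8.12 ± 0.97, adjusted p = 0.000399). In each of the 10 both W12 libraries lay above both D0 libraries, which the rule requires. Levels of the Prl2c, Lce3, Cstdc and Krt6 genes are uncertain one by one, because their near-identical copies can share reads.

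The 10 largest falls were in *Krt77*, *Krt15*, *Fcgbp*, *Sik1*, *Il12rb2*, *Cxcl14*, *Thbs1*, *Pyy*, *Ccn1* and *Sult5a1*. *Il12rb2*, a chain of the interleukin 12 receptor at chr6:67291318-67376188, went from 27 and 53.1 to 0.824 and 0.749 TPM (log2 change −4.45 ± 0.30, adjusted p = 2.24e-05). It lay at 0.105 and 0.112 TPM at W6, so this gene was already low before the grafted stage. *Cxcl14*, a chemokine of resting epithelium, went from 677 and 1393 to 47.6 and 49.2 TPM (log2 change −4.30 ± 0.29) and differed little between W6, at 51.9 and 52.1 TPM, and W12 (difference −0.10, adjusted p = 0.835). *Sult5a1*, a sulfotransferase, fell from 159 and 151 to 9.78 and 5.6 TPM, and unlike these it was lower at W12 than at W6 too (difference −1.77, adjusted p = 0.00244). *Fcgbp*, an IgG-binding mucin-like protein, fell from 546 and 1151 to 18.1 and 27.1 TPM, and *Sik1*, a salt-inducible kinase, from 85.9 and 217 to 5.22 and 4.25 TPM. D0 replicate 2 was the higher D0 library for *Krt15*, *Il12rb2*, *Fcgbp*, *Sik1*, *Cxcl14*, *Thbs1*, *Pyy* and *Ccn1*, and each was still lower at W12 when that library was left out.

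**Figure D3:**
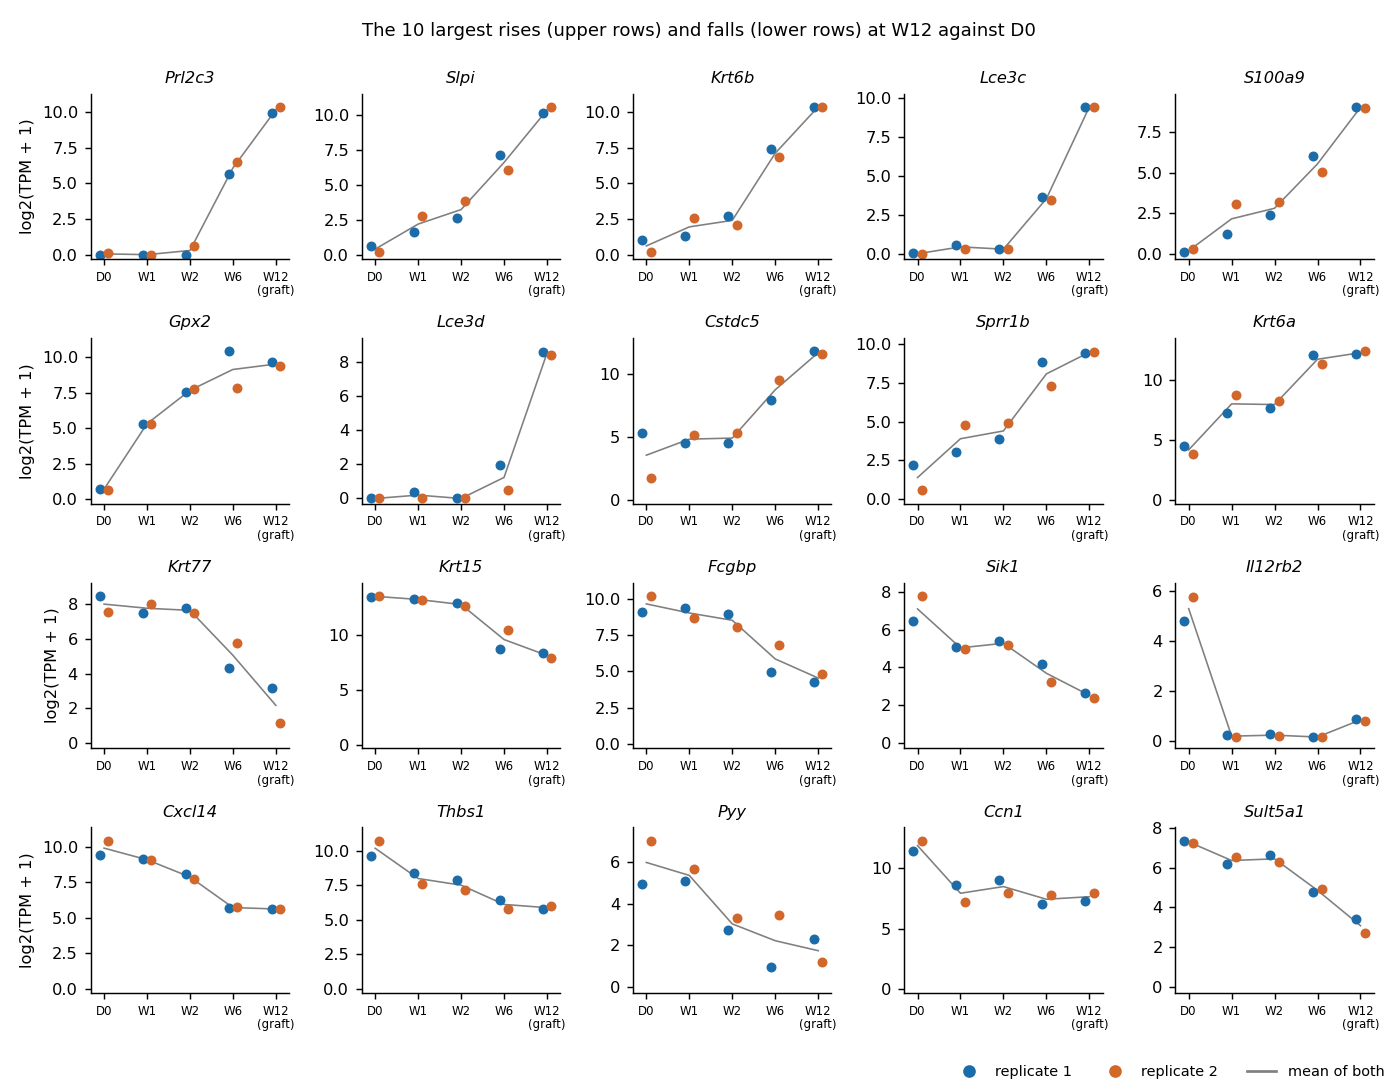
Level, as log2(TPM + 1), of the 10 genes that rose most and the 10 that fell most at W12. Each library of D0, W1, W2, W6 and W12 is shown, with blue for replicate 1 and orange for replicate 2. A grey line joins the means of log2(TPM + 1), each panel has an axis of its own and timepoints are evenly spaced. Lce3c and Lce3d are at 11.6 TPM or less at W6 and at 350.0 TPM or more at W12, Prl2c3 is at 48.3 and 89.5 TPM at W6, and Krt6a is already high there.

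Keratins split by class. Keratins form the intermediate filaments of epithelial cells, in pairs that mark the layer and state of a keratinocyte. All 4 wound and stress keratins rose, with a median log2 change of 5.88 beside a median of −0.08 over all genes tested. *Krt16* lay at 189 and 201 TPM at D0 against 2402 and 2578 TPM at W12 (log2 change 3.67 ± 0.31, adjusted p = 6.12e-05), and *Krt17* at 1147 and 1430.5 TPM at D0 against 3309 and 4545 TPM at W12 (log2 change 1.60 ± 0.30, adjusted p = 0.00372). *Krt6a* reached 4564 and 5379.8 TPM at W12 from 22.1 and 13.2 TPM, although at W6 it was already at 4424 and 2603 TPM. Of the 3 basal keratins none rose and 2 fell, *Krt15* steeply and *Krt5* by a log2 change of −0.95 ± 0.17, and *Krt14* lay at 29902 and 31096 TPM at D0 against 35371 and 37666 TPM at W12 (adjusted p = 0.308). *Krt14*, *Krt16* and *Krt17* have near-identical stretches, and reads can pass between them.

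Of the 6 keratins of simple epithelia and ducts that could be tested, 4 rose and 1 fell. *Krt8* and *Krt18*, the pair of simple epithelia, lay at 0.0348 and 0.0390 and at 0.473 and 0.0666 TPM at D0 and reached 46.3 and 145 and 32.9 and 105 TPM at W12 (log2 changes 6.33 ± 0.69 and 5.58 ± 0.69, adjusted p = 0.000246 and 0.000473). *Krt19* rose from 0.691 and 0.362 to 44.4 and 156 TPM, and *Krt7* from 0.838 and 1.01 to 4.31 and 12.7 TPM. In each of the 4 keratins W12 replicate 2 was about 3 times replicate 1, a ratio of 3.14 for *Krt8* and 3.53 for *Krt19*, above the range of 0.668 to 1.69 between the 5th and 95th percentile of all tested genes and above the medians of the endothelial genes. The claudins *Cldn4* and *Cldn7*, tight junction proteins of simple epithelia, had the same split, at 21.8 and 71.1 and 4.27 and 14.3 TPM at W12 from 1.9 and 3.28 and 0.994 and 1.16 TPM at D0. *Krt80*, a keratin of differentiating cells, went the other way, from 165 and 303 to 15.4 and 12.6 TPM (log2 change −3.91 ± 0.26, adjusted p = 2.24e-05).

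The cornified envelope is the cross-linked protein shell of the outermost keratinocytes. Of its 22 tested genes, of 24 listed, 16 rose and 3 fell, with a median log2 change of 3.46. The risers were the small proline-rich proteins, involucrin and late envelope proteins. *Sprr1b* lay at 3.53 and 0.502 TPM at D0 against 694 and 741 TPM at W12 (log2 change 8.10 ± 0.73, adjusted p = 9.20e-05), *Sprr2d* at 0.365 and 0.206 TPM at D0 against 224 and 275 TPM at W12 and *Sprr2g* at 0.372 and 0.141 TPM at D0 against 214 and 222 TPM at W12. *Cnfn*, cornifelin, was at 4.42 and 4.4 TPM at D0 against 678 and 640.3 TPM at W12 (log2 change 6.93 ± 0.64, adjusted p = 0.000104). The 3 that fell were the envelope's scaffold, namely the plakins *Ppl* (periplakin), from 60.8 and 106 to 17.4 and 14.4 TPM, and *Evpl* (envoplakin), from 43.6 and 73.2 to 14.4 and 16.3 TPM, and *Scel* (sciellin), from 81.1 and 124 to 37.9 and 38 TPM, with log2 changes of −2.27, −1.82 and −1.38. The Sprr2 genes are near-identical copies, so their values one by one are uncertain.

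Among the 9 suprabasal genes tested, 3 rose and 2 fell, so as a group they did not move one way. *Lor*, loricrin, the main envelope protein of the granular layer, fell from 15.4 and 19.4 to 2.00 and 2.05 TPM (log2 change −2.60 ± 0.43, adjusted p = 0.0019), and *Krt77*, a keratin of sweat ducts and skin, from 349.8 and 187 to 8.19 and 1.21 TPM. *Calml3*, a calmodulin-like protein, rose from 2.14 and 4.73 to 23.8 and 26.3 TPM (log2 change 2.62 ± 0.39, adjusted p = 0.00112). *Krtdap*, secreted by spinous cells, lay at 3314 and 647 TPM at D0 against 11060.2 and 9986 TPM at W12 (adjusted p = 0.0075, and 0.0516 without W12 replicate 1). *Krt1* and *Krt10*, the pair of the spinous layer, lay at 915 and 265 TPM at D0 against 1102 and 904 TPM at W12 and at 1335 and 871 TPM at D0 against 1041 and 700.0 TPM at W12 and did not pass the test, except *Krt1* without D0 replicate 1 (adjusted p = 0.0153). Without W12 replicate 1 the count of higher genes in this list was 1, and without D0 replicate 1 it was 5.

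Secreted defence proteins made up the next group. Of 14 antimicrobial and acute-phase genes tested, 10 rose and 1 fell (median log2 change 4.51). *S100a8* and *S100a9* encode the subunits of calprotectin, a metal-binding alarmin. *S100a8* lay at 11.9 and 1.2 TPM at D0 against 536 and 576 TPM at W12 (log2 change 6.70 ± 0.81, adjusted p = 0.00041) and *S100a9* at 0.0949 and 0.215 TPM at D0 against 525 and 503 TPM at W12 (log2 change 8.80 ± 0.55, adjusted p = 1.77e-05). *Lcn2*, a siderophore-binding lipocalin, rose from 0.361 and 0.167 to 58.9 and 104 TPM, and *Defb14*, a β-defensin, from 1.83 and 0.836 to 169 and 158 TPM. The whey acidic proteins *Wfdc18*, at 168 and 331 TPM at W12, and *Wfdc2*, at 47.4 and 128 TPM, rose with log2 changes of 7.61 and 5.09, and both were higher in W12 replicate 2, by ratios of 1.97 and 2.69. The 3 proliferin genes, placental relatives of prolactin, all rose, with *Prl2c2* at 0.0525 and 0 TPM at D0 and 149 and 278 TPM at W12 and *Prl2c5* listed at 0 in both D0 libraries and at 35.3 and 79.4 TPM at W12.

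Of 14 S100 genes tested, 9 rose and 0 fell, and 6 rose without W12 replicate 2. *S100a4*, linked to cell motility, lay at 25.1 and 13.2 TPM at D0 against 570.3 and 363 TPM at W12 (log2 change 4.57 ± 0.30, adjusted p = 2.16e-05). *S100a6*, already abundant in basal cells, lay at 1799 and 1109.8 TPM at D0 against 5933 and 5279 TPM at W12 (log2 change 1.99 ± 0.25, adjusted p = 0.000534). Among 17 genes of the serpin family, which is known for protease inhibitors, 9 rose and 3 fell. *Serping1*, the complement C1 inhibitor, rose from 0.689 and 1.05 to 29.2 and 48.3 TPM (log2 change 4.37 ± 0.34, adjusted p = 4.55e-05), while *Serpinh1*, the collagen chaperone HSP47, fell from 132 and 139 to 45.2 and 57.6 TPM and *Serpinb2*, an inhibitor of plasminogen activators, from 1474 and 2673 to 943 and 780.4 TPM.

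Genes of the invasive front of tumours, proteases and matrix proteins, moved in both directions. Of 21 genes tested, of 29 listed, 11 rose and 5 fell (median log2 change 2.09). The falls were near the share of 25.1% over all genes tested, of which 17.9% rose. *Mmp13*, a collagenase, was at 0.154 and 0.0227 TPM at D0 and 74.3 and 109 TPM at W12 (log2 change 6.39 ± 0.24, adjusted p = 1.75e-06). *Mmp10*, a stromelysin, was at 0.0438 and 0.0122 TPM at D0 and 56.5 and 87.9 TPM at W12 (log2 change 6.12 ± 0.25, adjusted p = 2.21e-06). Both were under 1 TPM in both W6 libraries. *Mmp9*, a gelatinase, rose from 0.125 and 0.0332 to 36.5 and 50.8 TPM, and *Mmp3*, another stromelysin, from 8.59 and 7.63 to 61.5 and 80.9 TPM (log2 change 2.98 ± 0.33, adjusted p = 0.000284) after 0.296 and 1.76 TPM at W6. *Timp1*, an inhibitor of these enzymes, rose with them, from 0.127 and 0.0286 to 76.1 and 74.4 TPM (log2 change 6.15 ± 0.19), whereas *Timp3*, the inhibitor that binds to the matrix, fell from 57.3 and 83.2 to 20.0 and 28.6 TPM. *Plau*, the urokinase protease, rose from 1.9 and 0.976 to 25.9 and 28.1 TPM and its receptor *Plaur* from 0.775 and 0.578 to 23.1 and 36.8 TPM. *Tnc*, the matrix glycoprotein tenascin C, rose from 3.34 and 3.1 to 14.1 and 20.6 TPM. The falls were led by *Thbs1*, thrombospondin 1, from 787 and 1679 to 53.9 and 61.3 TPM, and by the matricellular *Ccn1*, from 2805 and 4956 to 157 and 252 TPM.

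**Figure D4:**
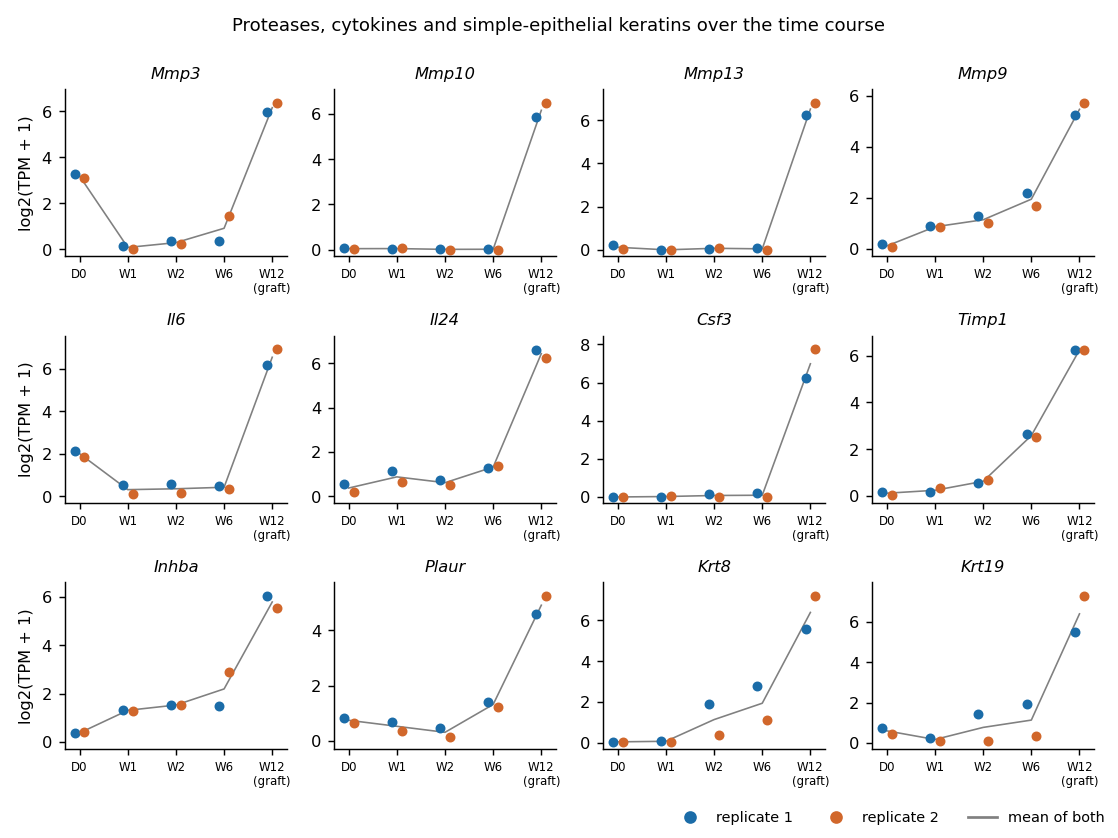
Level, as log2(TPM + 1), of proteases, cytokines and simple-epithelial keratins in each library of D0, W1, W2, W6 and W12. It is drawn as in the plot of the largest changes. Mmp10 and Mmp13 stay under 1 TPM up to W6 and reach 56.5 to 109 TPM at W12, and the keratins stand apart between the W12 replicates.

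The promoters of the metalloproteinases are shown because all that had a sequence held the same motif near the start site. AP-1, the FOS and JUN dimer, is known to bind TGANTCA, and these letters were searched on both strands in the 250 bases before each gene's RefSeq start site on GRCm38.p6. Of 32851 such promoters 2217 held a match (6.75%). *Mmp3*, *Mmp10* and *Mmp13* each held 1 match, the 3 of the 4 risen metalloproteinases with a sequence, and so did 2 of the 8 with a sequence among the 10 largest rises, *Prl2c3* and *Sprr1b*. The stretches shown are 120 bases with the match in capitals, written 5′ to 3′ on the gene's strand, from chr9:7445702-7445821 (plus strand), chr9:7502222-7502341 (plus strand), chr9:7272394-7272513 (plus strand) and chr3:92438780-92438899 (minus strand), and these 4 were chosen after the values were seen.
Mmp3: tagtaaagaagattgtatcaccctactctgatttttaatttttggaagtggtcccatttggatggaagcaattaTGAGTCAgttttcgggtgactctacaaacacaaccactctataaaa
Mmp10: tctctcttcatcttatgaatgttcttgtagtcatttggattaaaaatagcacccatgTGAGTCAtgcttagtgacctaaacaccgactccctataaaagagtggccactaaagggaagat
Mmp13: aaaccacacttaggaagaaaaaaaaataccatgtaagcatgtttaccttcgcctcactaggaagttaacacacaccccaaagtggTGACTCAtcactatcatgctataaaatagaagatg
Sprr1b: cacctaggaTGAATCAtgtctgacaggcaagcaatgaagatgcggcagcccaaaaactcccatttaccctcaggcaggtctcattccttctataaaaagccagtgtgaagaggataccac
The match began 46 bases before the start site in *Mmp3*, 63 in *Mmp10*, 35 in *Mmp13* and 111 in *Sprr1b*. Each stretch also holds TATAAA, the letters of the TATA box, which 4063 of the 32851 promoters had (12.4%) and 1 of the 8 with a sequence among the 10 largest rises. Its first base is at −7 in *Mmp3*, −29 in *Mmp10*, −16 in *Mmp13* and −30 in *Sprr1b* relative to the start site, and no match of the motifs overlaps the other. A match describes the letters and not a bound site, and no binding data were analysed here.

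The AP-1 factors themselves were lower as mRNA. Of 9 tested members of the family 8 fell and 1 rose, against 25.1% and 17.9% of all genes tested. *Fos* lay at 7385 and 8547 TPM at D0 against 1394 and 1606 TPM at W12 (log2 change −2.41 ± 0.37, adjusted p = 0.00138), *Jun* at 2251 and 3467 TPM at D0 against 399 and 543 TPM at W12 (log2 change −2.58 ± 0.36) and *Junb* at 5321 and 9271 TPM at D0 against 994 and 1237 TPM at W12 (log2 change −2.66 ± 0.39). *Fosl1*, a member often raised in squamous tumours, fell from 613 and 993 to 119 and 136 TPM. *Batf*, a partner of JUN known from immune cells, was the riser, from 0.180 and 0.0460 to 3.25 and 5.62 TPM (log2 change 2.26 ± 0.31, adjusted p = 0.000819). These genes belong to the immediate-early response, which can also be set off by the dissociation of tissue, and of 18 genes of that list, 5 of them AP-1 genes, 15 fell and 1 rose. *Egr1* fell from 1932 and 4700.2 to 208 and 286 TPM and *Nr4a1* from 1517 and 3649.7 to 213 and 261 TPM. The summed level of the list was 34242 and 56915 TPM at D0 against 7649.7 and 9581 TPM at W12 and 9386 and 8255 TPM at W6, so both D0 libraries stood apart from W6 and W12. Whether dissociation of the D0 skin had a part was not tested.

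Among signals to immune cells, of 24 chemokine and interleukin genes tested 12 rose and 5 fell (median log2 change 1.53). *Il24*, a cytokine of the interleukin 10 family that acts on epithelium, lay at 0.442 and 0.148 TPM at D0 and 98.2 and 75.7 TPM at W12 (log2 change 6.08 ± 0.25, adjusted p = 2.48e-06). *Csf3*, the granulocyte colony-stimulating factor, was listed at 0 in both D0 libraries and lay at 73.9 and 214 TPM at W12, again about 3 times higher in replicate 2. *Il6*, which was at 3.4 and 2.64 TPM at D0 and 0.409 and 0.278 TPM at W6, reached 70.6 and 118 TPM at W12 (log2 change 4.53 ± 0.30, adjusted p = 2.16e-05). *Cxcl1*, which attracts neutrophils, was at 29 and 7.4 TPM at D0 against 158 and 198 TPM at W12, and *Tnf* at 1.00 and 0.538 TPM at D0 against 15.7 and 15.8 TPM at W12. The falls included chemokines of healthy epidermis, with *Ccl27a*, which attracts skin T cells, going from 5108 and 5349 to 497 and 323 TPM (log2 change −3.70 ± 0.49, adjusted p = 0.000633). *Il33*, an alarmin held in the nucleus, lay at 113 and 154 TPM at D0 against 75.7 and 50.2 TPM at W12 and did not pass the test (adjusted p = 0.258).

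Class II presentation genes, usually a sign of antigen-presenting cells but also switched on in keratinocytes by interferon, rose without the leukocyte markers. *H2-Aa* lay at 5.44 and 4.61 TPM at D0 against 45.1 and 37.5 TPM at W12 (log2 change 2.81 ± 0.24, adjusted p = 7.82e-05), and *Cd74* had a log2 change of 2.45 ± 0.31 (adjusted p = 0.000553). Class I genes did not follow. Of 12 tested, 5 fell and 1 rose, and without W12 replicate 1 1 fell, and without D0 replicate 2 or W12 replicate 2 3. *B2m*, the light chain of class I, lay at 3362 and 4113 TPM at D0 against 4623 and 3899 TPM at W12 (adjusted p = 0.521), and *Tapbp*, tapasin, fell from 221 and 255 to 91.9 and 145 TPM (log2 change −1.03 ± 0.22, adjusted p = 0.0062). Interferon-stimulated genes had 4 rises and 2 falls among 15 tested, where 17.9% and 25.1% of all genes did so, and 1 rise without W12 replicate 1 and 1 fall without D0 replicate 1 or W12 replicate 2. *Gbp2*, a GTPase induced by interferon-γ, rose from 7.5 and 7.4 to 31.4 and 35 TPM (log2 change 2.02 ± 0.36, adjusted p = 0.00263), and *Usp18*, which removes ISG15, fell from 25.1 and 33 to 5.56 and 3.78 TPM. Reads of class I genes can pass between their copies.

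Genes that anchor basal cells to the basement membrane moved downwards or not at all. Of 16 genes of hemidesmosomes and the basement membrane, 8 fell and 0 rose (median log2 change −0.72). *Col17a1*, the collagen of the hemidesmosome, lay at 686 and 1083 TPM at D0 against 224 and 283 TPM at W12 (log2 change −1.77 ± 0.25, adjusted p = 0.000951). *Itgb4*, the integrin partner of *Itga6*, lay at 140.0 and 232 TPM at D0 against 42.2 and 68.2 TPM at W12 (log2 change −1.73 ± 0.27, adjusted p = 0.00158), and *Lamb3*, the β chain of laminin 332, at 272 and 478 TPM at D0 against 98.9 and 124 TPM at W12 (log2 change −1.69 ± 0.25, adjusted p = 0.00114). This list has long transcripts, with a median longest transcript of 6532.5 bases against 3043 over all genes tested, and long genes fell more often. Among 10 integrins 3 rose and 3 fell, counts to be set beside 17.9% and 25.1% of all genes tested. *Itga3*, the α chain that binds laminin 332, fell from 93.1 and 179.6 to 24.5 and 33.3 TPM (log2 change −2.14 ± 0.28, adjusted p = 0.000583), and *Itgb8*, which activates TGFβ, rose from 1.6 and 0.845 to 6.23 and 6.65 TPM. Without W12 replicate 2, 1 integrin rose.

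Cell junction genes moved in both directions. Of 18 tested, 7 rose and 6 fell, the falls being near the share of 25.1% over all genes tested, and 3 fell without D0 replicate 2. The desmosomal cadherin *Dsg1a* fell, from 135 and 173 to 70.1 and 44.1 TPM, while *Dsc2* rose from 2.91 and 1.02 to 32.1 and 35 TPM (log2 change 3.62 ± 0.29, adjusted p = 4.97e-05). *Dsg3* and *Dsc3*, the pair of the basal layer, lay at 85.9 and 122 TPM at D0 against 111 and 119.9 TPM at W12 and at 348 and 437 TPM at D0 against 358 and 314 TPM at W12 and did not pass the test. *Gjb2*, connexin 26 of the gap junction, rose from 2.06 and 1.04 to 74 and 70.7 TPM (log2 change 4.87 ± 0.25, adjusted p = 6.81e-06). The classical cadherins *Cdh1* and *Cdh3*, E- and P-cadherin, fell from 274 and 365 to 77.3 and 89.1 TPM and from 40.8 and 53.7 to 14.6 and 20.8 TPM. *Vim*, vimentin, a filament protein of mesenchymal and endothelial cells, rose from 0.694 and 0.975 to 53.5 and 104 TPM (log2 change 5.37 ± 0.43, adjusted p = 5.03e-05), with a W12 ratio of 1.94. *Snai2*, a repressor of E-cadherin, lay at 38.8 and 87.8 TPM at D0 against 52.2 and 50.5 TPM at W12 (adjusted p = 0.685, and 0.0275 without D0 replicate 1). Of 9 cadherins and regulators of epithelial-mesenchymal transition tested, 3 rose and 5 fell, with 2 falls without W12 replicate 1 and 3 without W12 replicate 2.

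Epidermal transcription factors fell in 10 of 20 tested members and rose in 2, with a median log2 change of −0.76. *Gata3*, a factor of epidermal and inner root sheath differentiation, lay at 241 and 346 TPM at D0 against 27.2 and 27.8 TPM at W12 (log2 change −3.35 ± 0.29, adjusted p = 8.24e-05). *Klf4*, which drives barrier formation, lay at 317 and 486 TPM at D0 against 66.7 and 75.2 TPM at W12 (log2 change −2.45 ± 0.29, adjusted p = 0.000352). *Ehf*, an ETS factor of epithelia, and *Prdm1*, a repressor known from terminal differentiation and lymphocytes, were the risers, from 14.9 and 19 to 104 and 88.9 TPM and from 0.386 and 0.844 to 5.56 and 10.7 TPM. Among 19 genes of follicle stem cells and the outer root sheath, 3 rose and 9 fell, with 5 falling without D0 replicate 2 and 5 without W12 replicate 1. *Tbx1* rose from 2.43 and 3.19 to 11.5 and 22 TPM and *Runx1*, needed for follicle stem cell activation, from 6.98 and 8.04 to 22.4 and 29.3 TPM (log2 change 1.65 ± 0.21, adjusted p = 0.000578). *Gas6*, a ligand of TAM receptors, fell from 299 and 509.7 to 31.9 and 28.3 TPM, *Nfix* from 315 and 616 to 87.3 and 105 TPM and *Lrig1*, an inhibitor of EGF receptors, from 57.3 and 75 to 11.7 and 13.7 TPM. *Lgr5*, a marker of follicle stem cells, stayed low, at 0.423 and 0.593 TPM at D0 against 1.04 and 1.3 TPM at W12 (adjusted p = 0.435). *Runx2*, a relative, lay at 0.876 and 0.595 TPM at D0 against 1.79 and 1.56 TPM at W12 (adjusted p = 0.0792).

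WNT and NOTCH genes were mostly lower. WNT ligands act through Frizzled receptors to stabilise β-catenin, and drive follicle growth. Of 27 WNT pathway genes tested, of 31 listed, 15 fell and 3 rose (median log2 change −0.68). The ligands *Wnt3*, *Wnt4* and *Wnt7b* fell, from 138 and 144 to 28.2 and 24.4, from 103 and 106 to 41.1 and 39.6 and from 86.8 and 131 to 21.4 and 18.1 TPM, and so did the receptor *Fzd10*, from 31.6 and 49.4 to 7.28 and 5.24 TPM, and the target and feedback gene *Axin2*, from 6.61 and 12.1 to 1.26 and 1.19 TPM (log2 change −2.17 ± 0.30, adjusted p = 0.000778). *Ctnnb1*, β-catenin itself, lay at 205 and 188 TPM at D0 against 211 and 229 TPM at W12 (adjusted p = 0.322). The 3 risers were *Nkd2*, *Wif1* and *Dkk3*, with *Nkd2*, an inhibitor inside the cell, going from 0.403 and 0.206 to 18.4 and 32.7 TPM (log2 change 4.30 ± 0.42, adjusted p = 0.000132). *Wif1*, which binds WNT ligands, lay at 0.152 and 0.344 TPM at D0 against 13.8 and 20.1 TPM at W12, but its adjusted p of 0.0158 became 0.0534, 0.0632, 0.064 and 0.0883 without D0 replicate 1, D0 replicate 2, W12 replicate 1 and W12 replicate 2. The number of WNT genes that rose was 1 without W12 replicate 1 and 1 without W12 replicate 2. NOTCH genes, whose ligands and receptors on neighbouring cells steer differentiation, fell in 8 and rose in 0 of 11 tested. The target *Hes1* lay at 879.7 and 744 TPM at D0 against 83.1 and 133 TPM at W12 (log2 change −2.93 ± 0.33, adjusted p = 0.000268), and the ligand *Dll1* at 54.5 and 136 TPM at D0 against 8.64 and 11.2 TPM at W12 (log2 change −3.01 ± 0.41, adjusted p = 0.000782). NOTCH pathway genes have a median longest transcript of 5485 bases, so the same limit on long genes holds.

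Hedgehog signalling, the driver of most basal cell carcinomas, was low in its ligands and targets. Among others *Shh*, *Ihh*, *Gli1* and *Hhip* were not tested because of low TPM. Of 8 tested genes 5 fell and 0 rose, against 25.1% and 17.9% of all genes tested. The tested genes of this list have long transcripts, with a median longest transcript of 5579.5 bases. Among the genes with the longest transcripts 39.0% fell and 8.68% rose. *Smo*, the signal transducer, lay at 73.3 and 85.3 TPM at D0 against 25.9 and 27.7 TPM at W12 (log2 change −1.53 ± 0.20, adjusted p = 0.000578), and the co-receptors *Cdon* and *Boc* fell from 6.15 and 6.02 to 0.648 and 0.580 TPM and from 16.2 and 28.6 to 4.96 and 7.69 TPM. *Ptch1*, receptor and target, lay at 1.73 and 2.77 TPM at D0 against 0.844 and 1.28 TPM at W12 (adjusted p = 0.0683, and 0.0366 without D0 replicate 1), and *Gli2* at 0.532 and 0.702 TPM at D0 against 0.589 and 0.717 TPM at W12 (adjusted p = 0.923).

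Of the ligands of the TGFβ superfamily, the activin subunits rose and *Bmp2* and *Bmp4* fell. The counts of the TGFβ and BMP lists below are to be set beside all genes tested, of which 17.9% rose and 25.1% fell. *Inhba*, the activin βA subunit, lay at 0.272 and 0.308 TPM at D0 and 64.7 and 45.7 TPM at W12 (log2 change 5.42 ± 0.40, adjusted p = 3.57e-05). *Inhbb* rose from 2.75 and 2.37 to 8.83 and 11.8 TPM (log2 change 1.66 ± 0.20, adjusted p = 0.000459). The receptor *Tgfbr2* fell from 29.2 and 50.4 to 12.6 and 14.1 TPM, and the latency proteins *Ltbp3* and *Ltbp4*, which store TGFβ in the matrix, from 29.7 and 50.5 to 6.26 and 10.8 TPM and from 89.5 and 189.8 to 18.8 and 28.9 TPM. In all, 3 of 18 TGFβ and activin genes rose and 7 fell, and 4 fell without W12 replicate 1 or D0 replicate 2. *Bmp2* and *Bmp4* fell from 49.3 and 56.2 to 6.52 and 6.77 TPM and from 74.9 and 66.8 to 8.35 and 8.15 TPM (log2 changes −2.81 ± 0.20 and −2.96 ± 0.45), whereas the BMP target *Id1* lay at 239.5 and 220.1 TPM at D0 against 249 and 263 TPM at W12 (adjusted p = 0.716). Of 15 BMP genes 1 rose, or 2 without D0 replicate 1, and 3 fell.

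Ligands of the EGF receptor moved in both directions. *Ereg*, epiregulin, lay at 0.319 and 0.258 TPM at D0 and 8.77 and 11 TPM at W12 (log2 change 3.07 ± 0.21, adjusted p = 2.83e-05), and *Areg*, amphiregulin, rose from 33.6 and 15.3 to 72.1 and 88.8 TPM. *Epgn*, epigen, fell from 299.6 and 197 to 47.9 and 62.2 TPM (log2 change −2.13 ± 0.24, adjusted p = 0.000321). The receptor *Erbb2* fell from 58.6 and 102 to 12.6 and 17 TPM (log2 change −2.33 ± 0.29, adjusted p = 0.000467). Counting both, 3 of 9 rose and 6 fell, and 4 fell without D0 replicate 2. IGF-binding proteins, which hold insulin-like growth factors, also differed among themselves. *Igfbp6* rose from 1.37 and 0.482 to 34 and 37.2 TPM and *Igfbp7* from 87.6 and 52.4 to 271 and 488 TPM, the latter being known from blood vessels, while *Igfbp3* lay at 551 and 595 TPM at D0 against 81.2 and 76.8 TPM at W12 (adjusted p = 0.0234, and 0.0631 to 0.101 without D0 replicate 1, D0 replicate 2, W12 replicate 1 or W12 replicate 2).

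Among genes of the cell cycle, of 22 DNA replication genes 14 rose and 0 fell (median log2 change 0.98), and of 23 mitosis genes 2 rose and 0 fell (median 0.23). *Tyms*, thymidylate synthase, lay at 137 and 63.7 TPM at D0 against 234 and 236 TPM at W12 (log2 change 1.32 ± 0.30, adjusted p = 0.00806), and *Tk1*, thymidine kinase, at 55.3 and 22.3 TPM at D0 against 99.5 and 107 TPM at W12 (log2 change 1.52 ± 0.33, adjusted p = 0.00698). *Top2a*, a topoisomerase of dividing cells, lay at 69.2 and 39.4 TPM at D0 against 62.3 and 60.6 TPM at W12 (adjusted p = 0.593). The summed level of the replication genes was 917 and 448 TPM at D0 against 1239.6 and 1365 TPM at W12, so D0 replicate 1 lay nearer to W12, and the count of replication genes that rose was 4 without D0 replicate 2, 4 without W12 replicate 1 and 3 without W12 replicate 2. For mitosis genes it was 8 without D0 replicate 1, 1 without D0 replicate 2 and 0 without W12 replicate 1 or W12 replicate 2. Of 15 cyclins and inhibitors 1 rose and 5 fell, beside 25.1% of all genes tested that fell. *Myc* fell from 697 and 1161 to 82.8 and 131 TPM (log2 change −3.10 ± 0.46, adjusted p = 0.00118), *Ccnd2*, a cyclin of G1, from 446 and 598 to 168 and 167 TPM, and *Cdkn1a*, the cell cycle inhibitor p21, from 971 and 1539.6 to 419 and 459 TPM. *Ccnd1* did not pass the test, at 36.8 and 51.3 TPM at D0 against 39.8 and 48.5 TPM at W12.

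Of 23 genes of glycolysis and the response to low oxygen, 10 rose and 1 fell, or 4 without D0 replicate 1 (median log2 change 0.42). Enzymes made up most of the rises. *Ldha*, lactate dehydrogenase, lay at 964 and 769 TPM at D0 against 2017 and 2274 TPM at W12 (log2 change 1.31 ± 0.16, adjusted p = 0.000493), and *Pgk1*, phosphoglycerate kinase, at 189.7 and 119 TPM at D0 against 439 and 421 TPM at W12 (log2 change 1.51 ± 0.22, adjusted p = 0.00111). *Hk2*, the inducible hexokinase, rose from 5.07 and 1.12 to 17.6 and 18 TPM. Among genes known chiefly for hypoxia, *Ankrd37* rose from 10.7 and 5.64 to 26.6 and 36.4 TPM, *Adm*, adrenomedullin, fell from 47.3 and 46.3 to 11.1 and 14.8 TPM, and *Car9*, carbonic anhydrase 9, lay at 3.11 and 3.38 TPM at D0 against 5.61 and 3.88 TPM at W12 (adjusted p = 0.252). Of 25 genes of oxidative phosphorylation 14 rose and 0 fell, but this count was 4 without D0 replicate 2, 3 without W12 replicate 1, 1 without W12 replicate 2, and 8 both with quantile normalization and without a variance trend. The transcripts of this list are short, with a median of 1661 bases, and among the genes with the shortest transcripts 29.7% rose and 8.76% fell. *Ndufa4* was the largest of these rises, from 514 and 190.5 to 1234 and 1511 TPM (log2 change 2.12 ± 0.37, adjusted p = 0.00262).

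Detoxifying genes of the NRF2 response rose in 10 of 19 tested members and fell in 4 (median log2 change 0.68), with 1 fall without W12 replicate 1 and 2 without D0 replicate 2 or W12 replicate 2. These transcripts are short too, with a median of 1569 bases. *Gsta4*, a glutathione transferase that clears lipid aldehydes, lay at 1.96 and 0.855 TPM at D0 against 191 and 218 TPM at W12 (log2 change 6.45 ± 0.38, adjusted p = 1.25e-05), and *Akr1b8*, an aldo-keto reductase, at 13.1 and 9.77 TPM at D0 against 165 and 189.6 TPM at W12 (log2 change 3.85 ± 0.16, adjusted p = 2.52e-06). *Nqo1*, a quinone reductase and the usual marker of this response, rose from 17.5 and 13.9 to 73.9 and 74.9 TPM, while *Gsta2* fell from 9.92 and 3.99 to 1.54 and 1.41 TPM. Genes of sterol and fatty acid synthesis had 1 rise and 9 falls among 23 tested, with 4 falls without W12 replicate 1 and 3 rises without D0 replicate 1. *Fasn*, fatty acid synthase, fell from 34.7 and 57.1 to 7.53 and 10.5 TPM (log2 change −2.20 ± 0.30, adjusted p = 0.000721).

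Subunits of the SWI/SNF remodeller and of the MLL histone methyltransferases with their coactivators fell in 19 of 25 and rose in 0 (median log2 change −0.80). The study links some members of this list to SOX9, not each of them. *Arid1b*, a DNA-binding subunit, lay at 26.7 and 35.1 TPM at D0 against 8.65 and 8.43 TPM at W12 (log2 change −1.73 ± 0.16, adjusted p = 0.000118), and *Smarcd2* at 138 and 181 TPM at D0 against 52 and 64 TPM at W12 (log2 change −1.44 ± 0.19, adjusted p = 0.00056). *Kmt2c*, which methylates histone H3 at enhancers, lay at 15.2 and 20.0 TPM at D0 against 8.5 and 6.74 TPM at W12 (log2 change −1.11 ± 0.20, adjusted p = 0.00319). The log2 changes of those that fell ran from −1.84 to −0.47. Their transcripts are long, with a median of 5935 bases over the list, and after the correction for length 12 fell. Without D0 replicate 2 the count was 12, and without W12 replicate 1 it was 9.

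**Figure D5:**
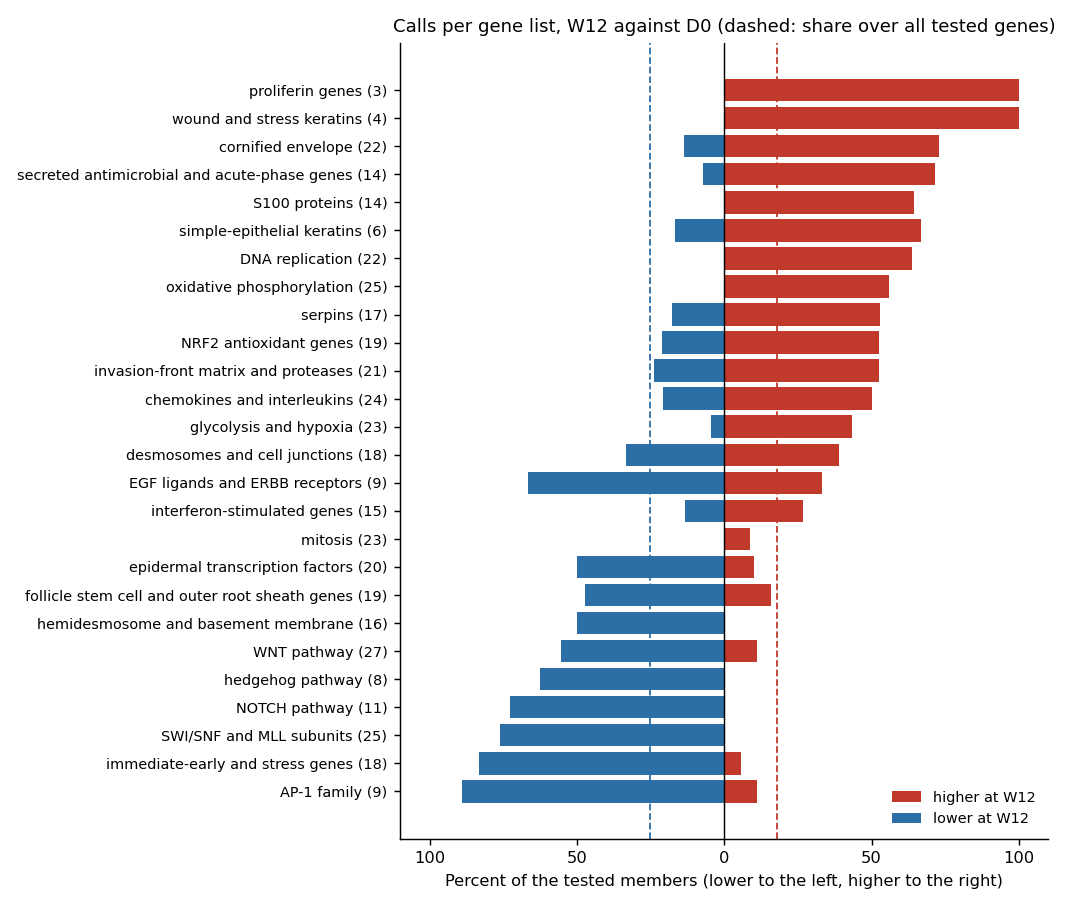
Percent of the tested members that were higher (right) or lower (left) at W12 than at D0, for a selection of the gene lists. Dashed lines mark the percent of all genes tested that were higher (17.9) or lower (25.1). The wound keratins and proliferins reach the right end, and the AP-1 and immediate-early genes extend farthest to the left.

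By level alone, with no test, 148 genes were switched on, which here means under 1 TPM in both D0 and at least 10 TPM in both W12 libraries, and 9 were switched off by the reverse rule. Of the 148, 20 were gene models or pseudogenes and 14 were in the endothelial lists. At W6, 26 of them were already at 10 TPM or more in both libraries, 79 lay between, and 43 were under 1 TPM in both. Of these 43, 9 were in the endothelial lists, and whether others came from endothelial cells was not tested. The 43 include *Lce3b*, a late envelope gene beside *Lce3c*, which reached 162 and 157 TPM, and *Mmp13*, *Mmp10* and *Csf3*. Of the 9 switched off, 3 were gene models. Besides *Il12rb2*, they were *Krt32*, a hair keratin that went from 33.7 and 18.1 to 0.877 and 0.793 TPM, *Wnk2*, a kinase that went from 11.7 and 18.2 to 0.498 and 0.609 TPM, *Rhbdl1*, *Cyp2w1* and *Egfl6*, whose product lies in the basement membrane of the follicle.

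To see which changes were particular to the grafted stage, W12 was set against W6, the last stage that was not grafted, a difference in which no D0 library enters, although the spread and the TPM filter came from all 10 libraries. At W12, 873 genes (6.66%) were higher than at W6 and 1769 (13.5%) lower. The median of all genes was −0.16 on the log2 scale, and median-ratio scaling brought it to −0.01 and the split to 1172 higher and 959 lower, 55.0% higher of those called in place of 33.0%. Quantile normalization gave 1070 higher and 1264 lower (45.8%), all genes with a TPM above 0 1181 and 1244 (48.7%), and the length correction 1234 and 925 (57.2%), so which direction was more frequent depended on the scaling. Single genes well beyond that shift were *Lce3d*, at 2.86 and 0.440 TPM at W6 and 397 and 350.0 TPM at W12 (difference 7.31, adjusted p = 1.60e-05), *Mmp13*, at 0.0658 and 0 TPM at W6 (difference 6.46, adjusted p = 4.76e-06), and *Il6* (difference 6.10, adjusted p = 8.76e-06). The transgene lay at 1108 and 859 TPM at W6 and did not pass the test between the stages (difference −0.40, adjusted p = 0.419). The wound keratins were split, with *Krt6a* not past the test (difference 0.55, adjusted p = 0.46), *Krt16* higher at W12 (difference 2.21, adjusted p = 0.00239), *Krt6b* higher too (difference 3.26, adjusted p = 0.00199) and *Krt17* lower (difference −1.10, adjusted p = 0.0358). Without W12 replicate 1 the counts were 470 higher and 291 lower, without W12 replicate 2 446 and 839, without W6 replicate 1 630 and 970, and without W6 replicate 2 1003 and 1843.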

How the data were processed

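RNA-seq of sorted EpdSCs was analysed from a table of TPM per gene, which the authors deposited for the time course and made with Salmon 1.4.0 and Tximport 1.12.3 from a GRCm38 transcriptome that included the transgene. Each library's TPM sum to 1000000, so depth is unknown and no counting error can be given. A deposited table of placode cells holds the authors' DESeq2 log2 fold changes, mean normalized counts, a score and p-values, and was not used. The 13110 of 54332 genes that averaged 1 TPM or more across the time course were tested on log2(TPM + 1) with limma 3.58.1 in R 4.3.3, as 5 group means with a trend of variance with mean, for the contrasts W12 minus D0, W6 minus D0 and W12 minus W6. P values were adjusted by Benjamini-Hochberg over all genes tested. DESeq2 on counts, the study's test, does not apply to TPM. Groups and replicate numbers came from the sample labels.

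The gene lists and the members named were chosen with earlier results of these data known. Named genes were the 10 largest rises and 10 largest falls past the threshold with no overlap between D0 and W12 (gene models, pseudogenes and ribosomal and mitochondrial genes aside), key members of each list with its 3 largest rises and falls, and the 10 highest switched-on and switched-off genes. *Mmp3*, *Plaur*, *Cnfn*, *Defb14*, *Wfdc2*, *Cldn7*, *Tnf*, *Cxcl1*, *Plvap* and *Lce3b* were added after their values were seen. Of the table's IDs, 54097 matched GENCODE M21, used for positions on GRCm38, an earlier release than the authors'. Alternatives were a pseudocount of 0.1, no filter on TPM beyond 0, a filter at a mean of 5 TPM, scaling by median ratios, quantile normalization, no variance trend, only the D0 and W12 libraries, an absolute log2 change of at least 1, a replicate block and each library left out. The length correction and all alternatives for W12 minus W6 were added after the data were seen. Tested on simulated data of 13110 genes with 200 changed, the W12 minus D0 step called 134 of these, 42% of changes of 1 and 92% of changes of 2 on the log2 scale, and 10 unchanged genes. Summaries and figures were made in Python 3.11.15 (pandas 2.3.3, numpy 2.4.6, matplotlib 3.10.9).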

Additional observations from a re-analysis of the deposited data

Results flagged for a closer look

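Some of the named genes were past the threshold in opposite directions at W6 and at W12 against D0 and also differed between W12 and W6, where the difference itself was tested with limma (log2 scale, adjusted over all genes tested). Those lower than D0 at W6 and higher at W12 were *Il6* (W12 minus W6 6.10, adjusted p = 8.76e-06), the protease gene *Mmp3* (5.24, adjusted p = 3.53e-05), the class II genes *Cd74* (4.98, adjusted p = 3.49e-05) and *H2-Aa* (4.02, adjusted p = 3.06e-05), the interferon-stimulated genes *Gbp2* (4.11, adjusted p = 0.000183), *Xaf1* (3.37, adjusted p = 7.14e-05), *Oas1a* (2.79, adjusted p = 0.00111) and *Isg15* (2.41, adjusted p = 0.00151), the haemoglobin gene *Hbb-bt* (4.30, adjusted p = 1.65e-05), the growth factor gene *Vegfa* (1.94, adjusted p = 0.00107), the sort marker gene *Ly6a* (1.74, adjusted p = 0.00184), the TGFβ repressor gene *Skil* (1.63, adjusted p = 0.00318) and the sterol enzyme gene *Sc5d* (1.04, adjusted p = 0.00275). Those higher than D0 at W6 and lower at W12 were the glutathione transferase gene *Gstm1* (−1.56, adjusted p = 0.00312) and the desaturase gene *Scd1* (−1.31, adjusted p = 0.00322). *Gbp2*, for example, lay at 7.5 and 7.4 TPM at D0, 0.636 and 1.39 TPM at W6 and 31.4 and 35 TPM at W12. The W6 and W12 changes share the D0 libraries, and the W12 change from D0 of *Isg15*, *Vegfa*, *Ly6a*, *Skil*, *Oas1a*, *Xaf1*, *Sc5d*, *Gstm1* and *Scd1* missed the threshold without at least 1 of the 4 libraries.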

How the results depend on the processing

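Of the named genes past the threshold before or after an alternative, only *Ddx3y* turned direction, as its log2 change came to −1.36 when D0 replicate 2 was left out, and to 3.65 when D0 replicate 1 was. Calls were lost by 2 to 31 of them with another pseudocount, scaling or trend, all genes above 0 or the 4 libraries alone, by 0 of the 249 still tested at a mean of at least 5 TPM, by 7 with the length correction, which 7 others gained, and by 15 to 41 with a library left out. Fitted to the D0 and W12 libraries only, 1532 genes were higher. A further threshold of 1 on the size of the log2 change left 1329 higher and 1827 lower genes. With each library left out, 1310 to 2906 genes were higher and 1882 to 3262 lower. For W12 against W6 a mean of at least 5 TPM left 545 genes higher, median-ratio scaling 959 lower and the length correction 925 lower, and leaving out each library gave 446 to 1003 higher and 291 to 1843 lower. With the D0 and W12 libraries only, the number of DNA replication genes that rose was 3 and of oxidative phosphorylation genes 1, and with all genes above 0 these were 5 and 3. A mean of at least 5 TPM left 6 chemokine and interleukin genes higher, as it tested fewer of them. Same-numbered replicates share only a number, since deviations of same-numbered D0 and W12 libraries correlated at 0.0934 (−0.129 to 0.182 over all pairs of timepoints). The fit with a replicate block called 2143 genes higher and 3116 lower for W12 against D0, and 764 and 1399 for W12 against W6, lost 3 named genes, and lowered the oxidative phosphorylation genes that rose to 8. With 2 libraries a group and no depth, a change of 1 on the log2 scale was often missed on simulated data, so a gene that did not pass the test is not shown to be equal.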

Other observations

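Of 84 ribosomal protein genes tested, 21 rose and 0 fell at W12 against D0 (median log2 change 0.31). Their transcripts are among the short ones, where 29.7% of all genes rose.

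Melanocyte markers had a summed level of 1.96 and 5.57 TPM at D0 against 10.3 and 9.24 TPM at W12. Of the 2 tested, *Dct*, an enzyme of pigment synthesis, rose, at 0.405 and 2.19 TPM at D0 against 4.76 and 3.73 TPM at W12 (adjusted p = 0.0416, and 0.0177 to 0.217 with each of the 4 libraries left out), and the other did not pass the test. Of imprinted growth genes, 8 of 12 were too low to test. *Plagl1*, a zinc finger gene of that network, fell from 8.42 and 6.35 to 0.662 and 0.894 TPM (log2 change −2.23 ± 0.37, adjusted p = 0.00206), and *Igf2* and H19 were under 1 TPM in both W12 libraries. The listed hair shaft keratins were too low to test.

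Of the 2 sebocyte markers tested, *Scd1*, a desaturase, fell from 27 and 30.6 to 18.9 and 19.8 TPM (log2 change −0.55 ± 0.19, adjusted p = 0.0478, and 0.056 to 0.179 with each of the 4 libraries left out), and *Mgst1*, a microsomal glutathione transferase that other cells also express, rose from 44.2 and 28.3 to 158 and 225 TPM (log2 change 2.38 ± 0.24, adjusted p = 0.000173). The haemoglobin genes rose to 223 and 248 TPM for *Hba-a2* and 127 and 142 TPM for *Hbb-bs*. These genes share reads between copies.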
